A study of Mus musculus with 14 samples.

Results

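The epithelium of the pelvic urethra was compared between E18.5 and E14.5, the span in which the mouse urogenital sinus lining becomes a layered urethral epithelium. The libraries were taken by their labels. They are 7 of the 14 libraries of the series, 4 from E14.5 and 3 from E18.5. All are labelled urethral epithelium of wildtype, untreated CD-1 female embryos. Noon of the day of the vaginal plug counted as E0.5. Trypsin loosened the tissue layers and forceps separated the epithelium, and each library held the females of a litter as 1 pool, so a value is a mean over several embryos and litters are the replicates. Of 55228 genes in the count tables, 17548 passed the filter on low counts and were tested. The remaining 7 libraries are bladder epithelium of the same stages and serve here only for the comparison of stage changes at the end.

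The urethral epithelium derives from the endoderm of the urogenital sinus. Sonic hedgehog made by this epithelium acts through Patched and Smoothened on Gli factors, mostly in the surrounding mesenchyme, and Wnt, FGF and BMP ligands pass between both layers. As such an epithelium matures, basal cells that express Trp63 and keratins 5 and 14 give rise to upper layers that express other keratins, barrier proteins and, in urothelium, the uroplakins of the superficial membrane plaque. Cell division slows as organs near birth, and RNA-binding and chromatin proteins of the early embryo are shut off.

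Urethral libraries held 22.4 to 35.1 M counts and detected 22545 to 24258 genes. E14.5 replicate 1 stood apart from its group. On the component that carried 67.7% of the variance it lay at -1.0, between the other E14.5 libraries (69.2 to 81.7) and the E18.5 libraries (-84.2 to -62.0). Its correlation with the E18.5 libraries (0.945 to 0.959) was as high as with its own group (0.942 to 0.963). Levels are given as CPM, the count scaled to the depth of its library. The 4 Y-linked genes checked (Kdm5d, Uty, Ddx3y and Eif2s3y) summed to 35 counts in E18.5 replicate 3 and to 0 in the other 6 urethral libraries, all labelled female.

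**Figure D1:**
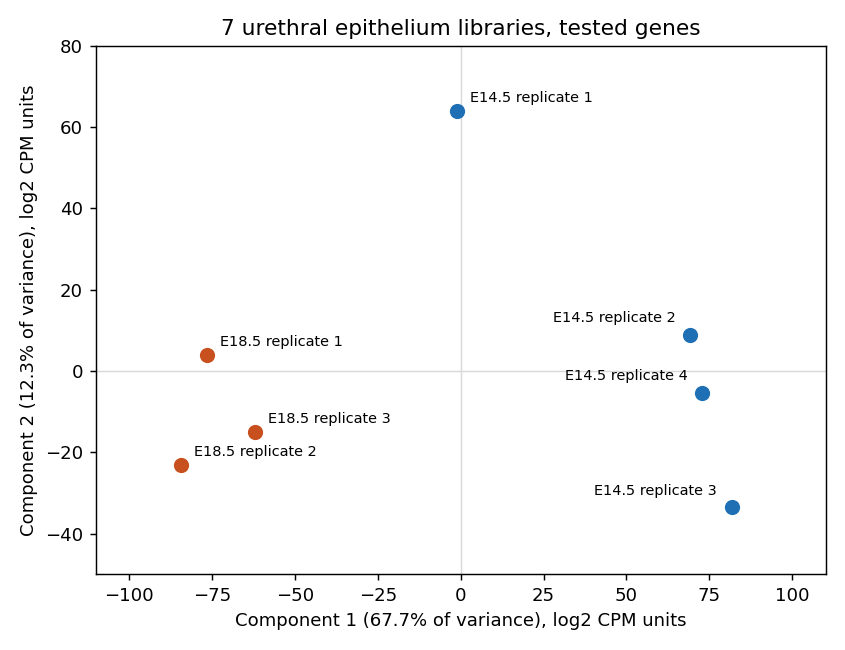
Each point is 1 urethral library on the leading 2 components of log2 CPM over the tested genes, with E14.5 in blue and E18.5 in orange. E14.5 replicate 1 lies at -1.0 on component 1 and 64.1 on component 2, away from the other 3 libraries of its stage.

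The label was checked with marker lists. The summed level of 7 pan-epithelial genes was 3835, 2330, 1739 and 1956 CPM in E14.5 replicates 1 to 4 and 4446, 4137 and 3754 CPM in E18.5 replicates 1 to 3. Epcam, an epithelial adhesion molecule, stood at 529, 403, 344 and 368 CPM at E14.5 and 649, 627 and 573 CPM at E18.5. The 18 mesenchymal marker genes summed to 2640, 3756, 7166 and 4385 CPM at E14.5 and 5348, 5938 and 6485 CPM at E18.5, so fibroblast RNA was present in every library and lowest in the E14.5 library that stood apart. Col1a1, a fibrillar collagen chain, was at 515, 628, 1661 and 789.7 CPM at E14.5 and 1377, 1490.0 and 1590.0 CPM at E18.5 (adjusted p = 0.174). E14.5 replicate 3 was the highest of its group for mesenchyme, endothelium (283 CPM against 51.3 to 136), erythroid genes (1078 against 262 to 647) and neurons and glia (186 against 66.4 to 128), and lowest for the pan-epithelial list. In these bulk libraries fewer cells of a type and less RNA per cell cannot be told apart. The call of Epcam was lost without E14.5 replicates 2, 3 or 4 or E18.5 replicates 1 or 2 (adjusted p 0.0599 to 0.0905). Col1a1 passed the test without E14.5 replicate 3 (adjusted p 0.00738).

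**Figure D2:**
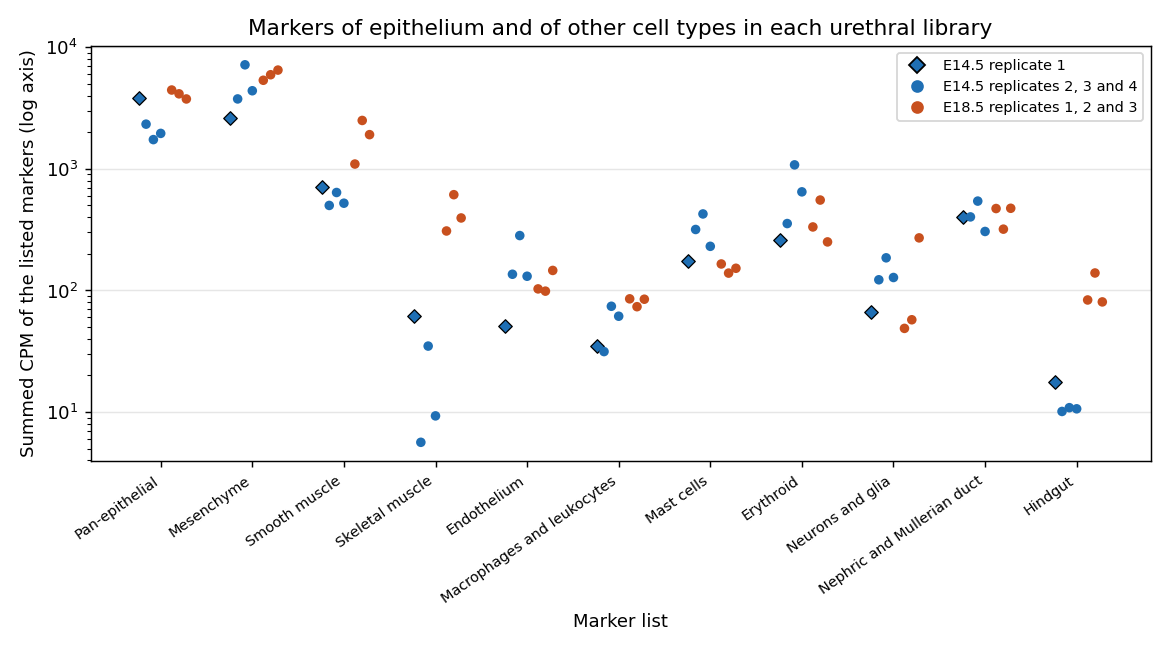
Summed CPM of each marker list (log axis) in each urethral library, E14.5 in blue with replicate 1 as a diamond, E18.5 in orange. Skeletal muscle, smooth muscle and hindgut lists are higher in all 3 E18.5 libraries, while mesenchyme, endothelium and duct lists overlap between the stages.

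Between E14.5 and E18.5, 5039 of the 17548 genes passed (28.7%), 2618 higher (14.9%) and 2421 lower (13.8%) at E18.5, in edgeR's quasi-likelihood test with Benjamini-Hochberg adjusted p under 0.05. Fold changes are E18.5 over E14.5, so a positive log2 value is a rise. A 2-fold minimum left 1508 rises (8.59%) and 906 falls (5.16%), and the median log2 fold change of all tested genes was 0.0112. The groups did not overlap for 6869 genes (39.1%). Scaling the libraries on the 7 pan-epithelial genes in place of all genes shifted that median to -0.764 and the split to 885 higher and 6705 lower. Without E14.5 replicate 1 there were 7272 calls, without E14.5 replicate 2 there were 2658, without E14.5 replicate 4 there were 3206, and without E18.5 replicate 1 or 2 there were 2743 and 2727. Of the 5039 genes, 2134 (42.3%) passed in the same direction in every one of the 7 fits that left out 1 library. The 2 stages came from separate deposited tables, so stage and anything that differed between those tables cannot be told apart. Lists below are given as members that passed, read against 14.9% of all tested genes higher and 13.8% lower. Those shares hold for the main fit only. List counts under pan-epithelial scaling are read against 885 higher and 6705 lower of 17548 genes. Without E14.5 replicate 1 all genes had 3903 higher and 3369 lower of 17402 tested. The other fits that left out 1 library had fewer calls than the main fit. A gene near 0 at 1 stage can pass the filter on low counts through the other stage alone, and its direction is then fixed. Values in the sentences below are CPM in replicate order. The ± after a fold change is its size divided by the square root of the test's F value, used as an approximate standard error.

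**Figure D3:**
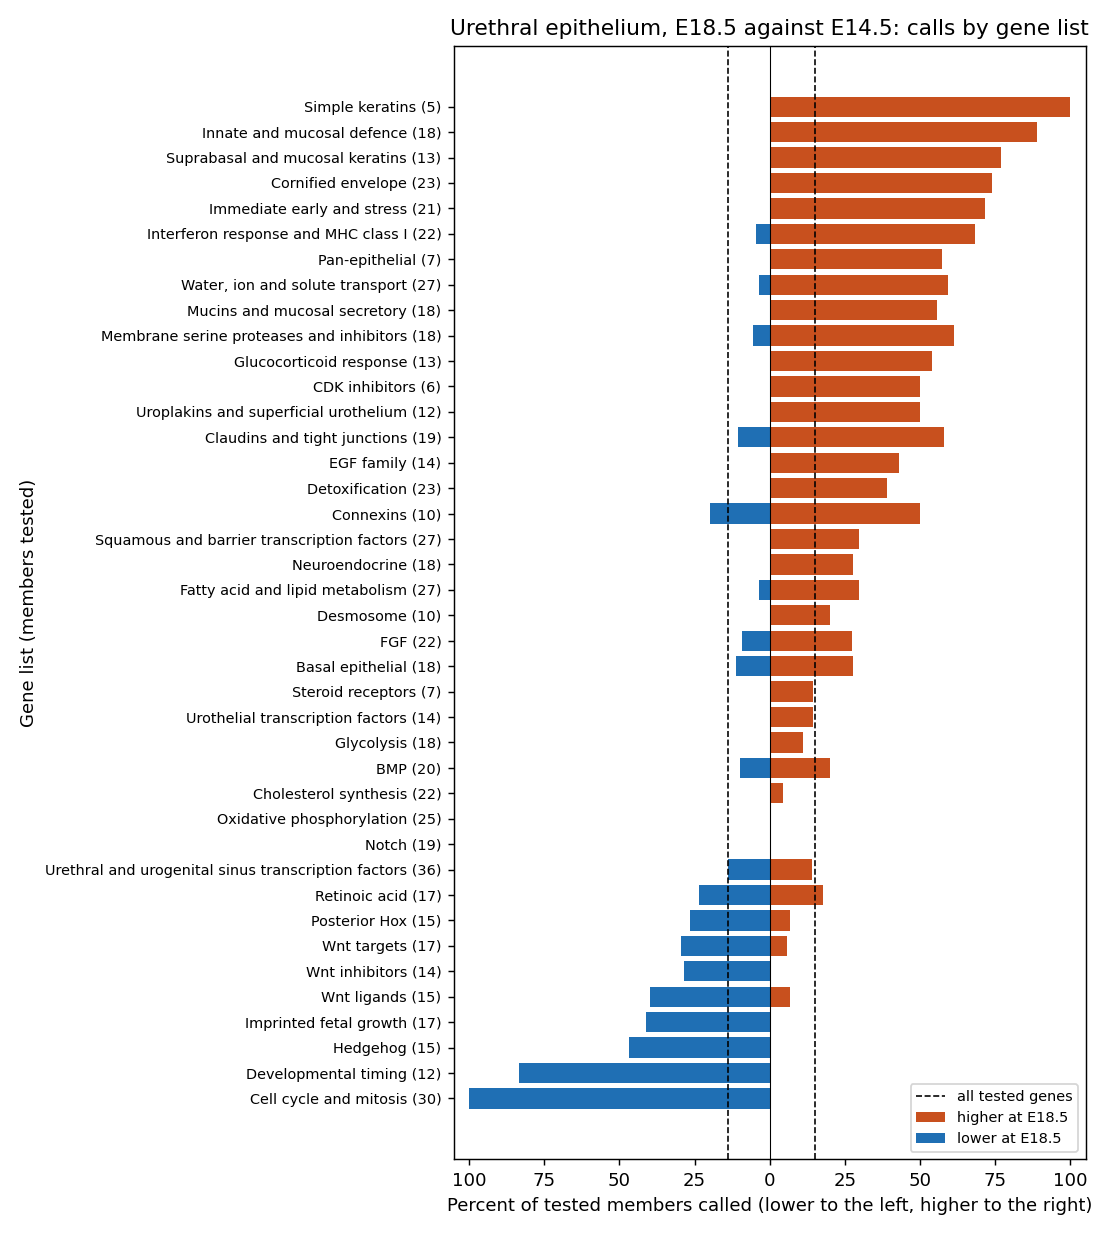
Percent of the tested members of each gene list that passed, lower at E18.5 to the left in blue and higher to the right in orange, with members tested in parentheses and dashed lines at the 13.8% lower and 14.9% higher of all tested genes. Simple keratins and mucosal defence lie at the top with no lower member, and cell cycle and developmental timing lie at the bottom with no higher member. Under pan-epithelial scaling all tested genes had 885 rises and 6705 falls. The FGF, BMP, claudin, glucocorticoid, lipid, cholesterol, glycolysis, steroid receptor and urothelial factor lists then have more falls than rises. The retinoic acid, urogenital sinus factor, Notch and oxidative phosphorylation lists then have only or mainly falls.

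The urethral epithelium gained keratins of upper layers. Of 13 tested suprabasal and mucosal keratins, 10 rose and none fell (median log2 fold change 3.10, against 0.0112 for all genes). Krt13, the keratin of the upper layers of non-cornified squamous linings, stood at 5.76, 0.388, 0.169 and 0.498 CPM at E14.5 and 744, 1193 and 544 CPM at E18.5. All 3 E18.5 libraries lay far above the highest E14.5 library, a log2 fold change of 8.95 ± 1.08 (adjusted p = 0.0025). Krt23 was at 3.69, 0.474, 1.35 and 0.748 CPM at E14.5 and 56.2, 119.8 and 32.2 CPM at E18.5 (log2 5.48 ± 0.72), and Krt78 at 18.2, 5.64, 3.203 and 4.11 CPM at E14.5 and 120.4, 112 and 93.8 CPM at E18.5 (log2 3.81 ± 0.57). Krt79, Krt80 and Krt16 rose by log2 3.10, 2.43 and 4.34, with no overlap between the groups. Krt4, the partner with which Krt13 forms filaments, was already abundant in E14.5 replicate 1, at 1740.0, 372, 115 and 338 CPM at E14.5 and 3676, 3443 and 2983 CPM at E18.5, and its difference did not pass (log2 2.39 ± 0.78, adjusted p = 0.0515). Per kilobase of gene model, Krt4 had 1579 CPM, Krt5 1094 and Krt13 454 on average at E18.5. Under pan-epithelial scaling 10 of the 13 still rose. Without E14.5 replicate 1 the log2 fold change was 11.18 for Krt13, 6.33 for Krt23, 4.65 for Krt78 and 3.61 for Krt4. With E18.5 replicate 2 left out, the log2 fold change stood at 4.83 for Krt23 and 3.65 for Krt16. Krt4 passed the test without E14.5 replicate 1 (adjusted p 0.000312).

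**Figure D4:**
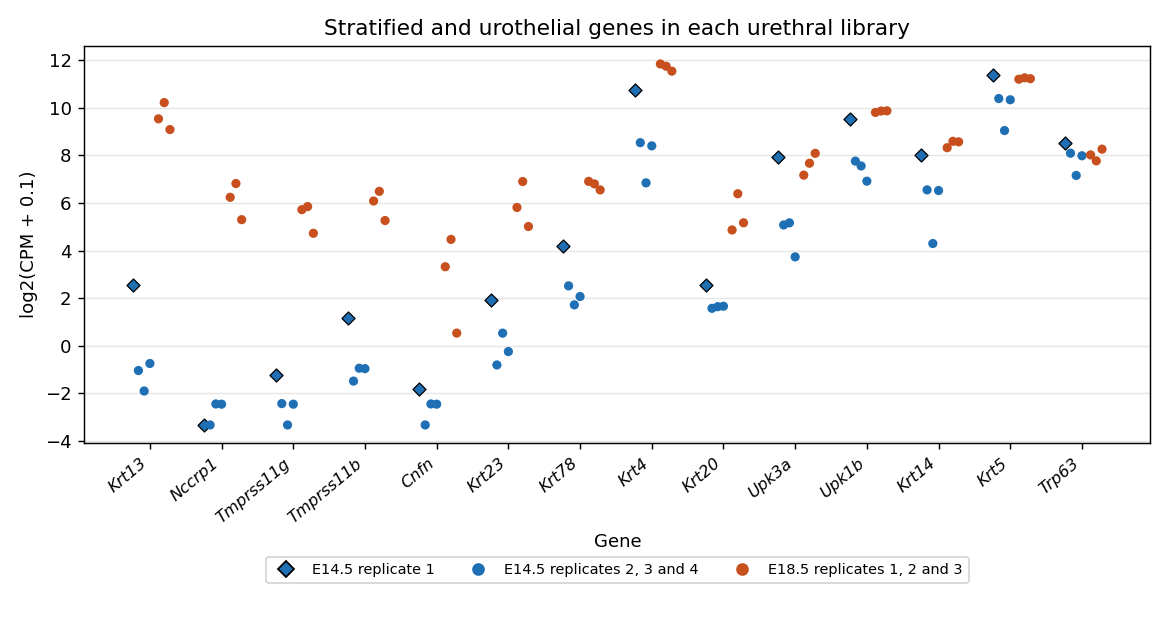
CPM of 14 genes in each urethral library as log2(CPM + 0.1), E14.5 in blue with replicate 1 as a diamond and E18.5 in orange. Krt13, Nccrp1, Tmprss11g and Tmprss11b separate the stages by more than 3 log2 units, whereas Krt4, Krt5, Krt14 and Trp63 overlap or nearly so with E14.5 replicate 1 among or next to the E18.5 libraries.

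Basal genes moved in both directions. Trp63, the master factor of stratified epithelium, was at 367, 273, 143 and 254 CPM at E14.5 and 260.2, 219 and 308 CPM at E18.5 (log2 0.02 ± 0.28, adjusted p = 0.972), with the E18.5 values inside the E14.5 range. Krt5 was at 2678, 1343, 529 and 1296 CPM at E14.5 and 2359, 2456 and 2396 CPM at E18.5 and Krt14 at 262, 93.8, 19.6 and 92.1 CPM at E14.5 and 321, 386 and 381 CPM at E18.5, and in both E14.5 replicate 1 lay within or near the E18.5 range (adjusted p = 0.249 and 0.0983). Of the 18 basal genes 5 rose. Among them were parts of the hemidesmosome, of laminin or of a laminin receptor, Col17a1 (log2 2.47 ± 0.53), Lamb3 (1.56), Itgb4 (1.5) and Itga3 (0.76). The 2 that fell were Bnc1, a zinc finger protein of basal keratinocytes, at 19.96, 17.1, 14.5 and 22.02 CPM at E14.5 and 4.599, 5.51 and 8.16 CPM at E18.5 (log2 -1.59 ± 0.25), and Cdh3, the P-cadherin of basal cells (-0.76 ± 0.11). Basal rises numbered 10 without E14.5 replicate 1, 2 without E14.5 replicate 2 or E18.5 replicate 2 and 3 without E14.5 replicate 4 or E18.5 replicate 3. Leaving out E14.5 replicate 1 gave log2 fold changes of 2.40 for Krt14 and 3.06 for Col17a1. Krt5 and Krt14 passed the test without E14.5 replicate 1 (adjusted p 0.00554 to 0.0154). Itgb4 lost the call without E14.5 replicate 2 or E18.5 replicate 2 (adjusted p 0.0519 to 0.0588). Without E14.5 replicates 2 or 4 or E18.5 replicates 2 or 3, Itga3 no longer passed (adjusted p 0.0568 to 0.0735).

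All 5 simple-epithelial keratins rose. Krt20, a keratin of superficial urothelial and gut cells, stood at 5.85, 2.89, 3.03 and 3.07 CPM at E14.5 and 29.1, 83.9 and 35.9 CPM at E18.5 (log2 3.74 ± 0.43, adjusted p = 0.00232). Krt7 was at 527, 249.7, 207 and 179 CPM at E14.5 and 983, 1417 and 865 CPM at E18.5 (log2 1.9 ± 0.38), and Krt19, Krt8 and Krt18 rose by log2 1.49, 0.98 and 0.99. The pan-epithelial list was also higher in the E18.5 libraries than in E14.5 replicates 2, 3 and 4, and its part in these rises was not tested apart from the scaling, under which 3 of the 5 rose. Simple keratin rises numbered 2 without E14.5 replicate 2 or E18.5 replicate 2 and 3 without E14.5 replicates 3 or 4 or E18.5 replicate 1. In the fit without E18.5 replicate 2 the log2 fold change was 3.13 for Krt20. For Krt19 the adjusted p rose to 0.055 to 0.0667 without E14.5 replicate 2 or E18.5 replicates 1 or 2. The call of Krt8 was lost without E14.5 replicates 2, 3 or 4 or E18.5 replicate 2 (adjusted p 0.0537 to 0.0861). Krt18 lost the call without any library other than E14.5 replicate 1 (adjusted p 0.0588 to 0.116).

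Cornified envelope genes encode proteins cross-linked beneath the membrane of squamous cells. Of 36 in the count tables, 13 did not pass the filter on low counts. Of the 23 tested, 17 rose and none fell (median log2 3.18), and 18 rose under pan-epithelial scaling. Members near 0 at E14.5, such as Cnfn, passed that filter through the E18.5 libraries and could not have been seen to fall. Cnfn (cornifelin) was at 0.184, 0, 0.0843 and 0.0831 CPM at E14.5 and 9.93, 22.1 and 1.35 CPM at E18.5, with E18.5 replicate 3 well below the other 2. Sbsn (suprabasin) was at 7.93, 2.97, 2.95 and 3.16 CPM at E14.5 and 37.8, 72.6 and 20.6 CPM at E18.5 (log2 3.36 ± 0.51), Csta1, a cysteine protease inhibitor, rose by log2 3.18 and Cysrt1 by 5.33. Nccrp1, an F-box family gene of squamous epithelia, had 4 counts in all E14.5 libraries together and stood at 75.6, 113 and 39.4 CPM at E18.5. Lipk, a lipase of late epidermal differentiation, was at 0.184, 0, 0.0843 and 0.0831 CPM at E14.5 and 8.196, 9.19 and 7.16 CPM at E18.5. Many Sprr genes are near-identical copies, and their counts depend on how shared reads were assigned. Cornified envelope rises numbered 9 without E14.5 replicate 2 or E18.5 replicate 2. The log2 fold change without E14.5 replicate 1 was 6.38 for Cysrt1. Dropping E18.5 replicate 2 gave 5.94 for Cnfn and 4.60 for Cysrt1 on the log2 scale.

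The list of membrane serine proteases and inhibitors was another that rose. Of its 28 matched members, 10 did not pass the filter on low counts. Of the 18 tested, 1 fell and 11 rose. They included 5 members of the Tmprss11 cluster, airway trypsin-like proteases of squamous linings. Tmprss11g was at 0.323, 0.0862, 0 and 0.0831 CPM at E14.5 and 52.7, 57.7 and 26.4 CPM at E18.5 (log2 8.52 ± 0.59, adjusted p = 0.00092), and Tmprss11b at 2.17, 0.259, 0.421 and 0.415 CPM at E14.5 and 67.9, 90.03 and 38.4 CPM at E18.5 (log2 6.34 ± 0.66). Neither exceeded 2.17 CPM in any E14.5 library. Tmprss11f, Tmprss11d and Tmprss11e rose by log2 5.56, 5.22 and 4.19, and Tmprss4, which acts on epithelial sodium channels in culture, by 2.62. The member that fell was Klk8, a kallikrein (-0.92 ± 0.16). The fit that left out E14.5 replicate 1 gave log2 fold changes of 9.54 for Tmprss11g, 7.46 for Tmprss11b and 4.88 for Tmprss11e.

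The promoters of Krt13 and Sbsn were picked because a window of each holds the letters bound by AP-1, the Fos and Jun dimers. Sequences are RefSeq promoters of GRCm38.p6 from 120 bases before to 30 bases after an annotated start, and capitals mark TGAGTCA on either strand.
Krt13 (second annotated start, chr11:100120548-100120697, minus strand): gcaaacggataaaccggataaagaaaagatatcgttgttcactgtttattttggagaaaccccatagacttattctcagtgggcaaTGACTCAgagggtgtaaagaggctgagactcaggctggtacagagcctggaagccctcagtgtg
Sbsn (chr7:30751351-30751500, plus strand): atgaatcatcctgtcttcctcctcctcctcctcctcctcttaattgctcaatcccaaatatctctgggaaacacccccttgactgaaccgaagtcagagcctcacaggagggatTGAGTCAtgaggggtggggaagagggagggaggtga
The motif starts 34 bases before the Krt13 start and 6 bases before the Sbsn start. The other annotated Krt13 start (chr11:100121537-100121686) lies at the upstream end of the gene model used for counting and has no match in this window. The printed Krt13 start lies inside that gene model. Over full promoter windows of 300 bases, 12 of the 32 matched cornified envelope genes held TGAGTCA (37.5%), as did 6 of the 15 matched members that passed (40%), 1 of 9 matched suprabasal keratins (11.1%) and 1607 of 27025 genes with a promoter (5.95%). A match describes the letters in the window and not a site.

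Junction genes changed in both directions. Claudins and tight junction genes had 11 rises and 2 falls among 19, which under pan-epithelial scaling became 3 rises and 4 falls. Cldn3 rose to 212, 272 and 178 CPM from 93.3, 40.5, 49.9 and 36.4 (log2 2.00 ± 0.33), the scaffold Tjp3 by log2 1.87, Cldn4 by 1.20 and Ocln, the tight junction protein occludin, by 0.77. The 2 that fell were Cldn6, a claudin of embryonic epithelia, at 149.6, 204, 224 and 164 CPM at E14.5 and 55.3, 65.1 and 63.4 CPM at E18.5 (log2 -1.60 ± 0.16), and Cldn9 (-2.28), whose groups overlapped. Of 10 connexins, the subunits of gap junctions, 5 rose, Gjb1, Gjb5 and Gjb6 among them, and 2 fell. Gjb1 (connexin 32) was at 0, 0.0862, 0.169 and 0 CPM at E14.5 and 18.4, 13.4 and 15.2 CPM at E18.5. Gja1 (connexin 43) and Gjc1 (connexin 45) had log2 fold changes of -0.75 ± 0.10 and -1.34 ± 0.17. Claudin and tight junction rises numbered 3 without E14.5 replicates 2 or 4 or E18.5 replicates 1 or 2 and 5 without E14.5 replicate 3. Connexin rises numbered 2 without E14.5 replicate 2 or E18.5 replicate 1 and 3 without E14.5 replicate 4 or E18.5 replicates 2 or 3. Without E14.5 replicate 3 the log2 fold change was 8.86 for Gjb1. Without E18.5 replicate 2, Cldn4 no longer passed (adjusted p 0.0538). For Ocln the adjusted p rose to 0.0524 to 0.0749 without E14.5 replicates 2 or 4 or E18.5 replicates 1 or 2. The call of Cldn9 was lost without any library other than E14.5 replicate 1 (adjusted p 0.085 to 0.134).

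Desmosomal genes passed in 2 of 10: Dsc2 at 86.99, 54.96, 58.8 and 36.6 CPM at E14.5 and 168, 184 and 135 CPM at E18.5 (log2 1.45 ± 0.26) and Dsg3 at 10.2, 1.51, 0.674 and 1.66 CPM at E14.5 and 21.3, 29.8 and 23.6 CPM at E18.5 (log2 2.83 ± 0.80). Desmosomal rises numbered 9 without E14.5 replicate 1. With E14.5 replicate 1 left out, the log2 fold change stood at 4.28 for Dsg3. Dsg3 lost the call without E14.5 replicates 2 or 4 or E18.5 replicates 1, 2 or 3 (adjusted p 0.0657 to 0.0978).

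Among 27 squamous and barrier transcription factors, 8 rose and none fell (18 and 1 without E14.5 replicate 1). Klf4, a zinc finger factor needed for the epidermal barrier, was at 30.5, 25.5, 24.5 and 26.8 CPM at E14.5 and 44.6, 54.3 and 51.6 CPM at E18.5 (log2 0.90 ± 0.12). Elf3, an epithelial ETS factor, was at 206, 83.2, 56.3 and 54.7 CPM at E14.5 and 474, 455 and 465 CPM at E18.5 (log2 2.22 ± 0.45), and Hopx, an atypical homeodomain protein of differentiating keratinocytes, at 42.5, 12.9, 8.09 and 8.93 CPM at E14.5 and 116, 186 and 126 CPM at E18.5 (log2 2.98 ± 0.58). Nfatc1, Cebpd and Klf6 rose by log2 1.95, 1.52 and 1.11, and none of these 6 calls was lost on leaving out a library. Leaving out E14.5 replicate 1 gave log2 fold changes of 2.84 for Elf3 and 3.84 for Hopx.

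Uroplakins and other superficial urothelial genes rose in 6 of 12 tested members (median log2 1.65). None of the 5 classical uroplakin genes passed with all 7 libraries. Upk3a, a uroplakin of the superficial plaque, was at 243, 33.7, 35.9 and 13.2 CPM at E14.5 and 144, 204 and 272 CPM at E18.5 (log2 1.35 ± 0.87, adjusted p = 0.273). Its level in E14.5 replicate 1 lay inside the E18.5 range, and the other 3 E14.5 libraries lay below it. Upk1b, a tetraspanin partner of Upk3a, was at 740.1, 217, 188 and 121 CPM at E14.5 and 897, 934 and 939 CPM at E18.5 (adjusted p = 0.0714). Members that passed included Psca, a surface antigen, at 167, 11.2, 19.7 and 2.41 CPM at E14.5 and 922, 1327 and 762 CPM at E18.5, Mal, a raft protein of apical sorting, at 189.7, 38.9, 55.5 and 13.3 CPM at E14.5 and 629, 1129 and 475 CPM at E18.5, and Gsdmc and Upk3bl (log2 2.12 and 1.69). Gsdmc has close paralogs among which reads may be split. Superficial urothelial rises numbered 12 without E14.5 replicate 1, 1 without E14.5 replicate 2 or E18.5 replicate 2, 3 without E14.5 replicate 3 and 2 without E18.5 replicate 1. In the fit without E14.5 replicate 1 the log2 fold change was 2.90 for Upk3a, 2.40 for Upk1b, 6.5 for Psca, 4.37 for Mal and 2.73 for Gsdmc. Upk3a and Upk1b passed the test without E14.5 replicate 1 (adjusted p 9.62e-05 to 0.000674). Without E14.5 replicates 2 or 3 or E18.5 replicates 1, 2 or 3, Psca no longer passed (adjusted p 0.0568 to 0.0904). For Mal the adjusted p rose to 0.0576 to 0.0691 without E14.5 replicate 2 or E18.5 replicate 2. The call of Gsdmc was lost without E14.5 replicates 2 or 3 or E18.5 replicates 1 or 2 (adjusted p 0.0631 to 0.0963). Upk3bl lost the call without E14.5 replicates 2 or 4 or E18.5 replicates 1 or 2 (adjusted p 0.0745 to 0.104).

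Factors that pattern the urogenital sinus and urothelium passed in more cases without E14.5 replicate 1 than with all 7 libraries. Tested genes in general did so too, with 7272 against 5039 calls. Of 14 urothelial factors, 2 rose, Elf3, given above, among them. Under pan-epithelial scaling that list had 1 rise and 3 falls. Foxa1, a pioneer factor of endodermal epithelium, was at 319, 244, 169 and 160.0 CPM at E14.5 and 390.5, 287 and 346 CPM at E18.5 (log2 0.61 ± 0.25, adjusted p = 0.0983). Its relative Foxa2 fell, from 34.6, 53.6, 21.2 and 47.6 CPM to 11.7, 10.2 and 14.5 CPM (log2 -1.69 ± 0.32, adjusted p = 0.00832), with no overlap. Urothelial factor rises numbered 7 without E14.5 replicate 1, and falls numbered 3 without E14.5 replicate 1. Foxa1 passed the test without E14.5 replicate 1 (adjusted p 0.00766).

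In the wider list of 36 urethral and urogenital sinus factors, 5 rose and 5 fell, which is 13.9% each way and close to the share of all genes, and pan-epithelial scaling made it 3 and 14. Sox9, an endodermal progenitor factor, was at 119, 59.1, 71.8 and 57.95 CPM at E14.5 and 222, 180.2 and 268 CPM at E18.5 (log2 1.54 ± 0.27, adjusted p = 0.00666). Foxc1 (0.66), Foxq1 (1.97) and Eya2 (1.92) also rose, of which Foxc1 turned negative under pan-epithelial scaling. Falling with Foxa2 were Dlx3, a homeobox gene of stratified epithelium, at 19.8, 36.7, 22.04 and 25.9 CPM at E14.5 and 9.38, 10.2 and 9.16 CPM at E18.5 (log2 -1.45 ± 0.23), Isl1 (-1.05), Eya1 (-1.23), whose groups overlapped, and Six2 (-0.72). Sox2 was at 130.1, 136, 65.7 and 124 CPM at E14.5 and 92.9, 59.4 and 82.1 CPM at E18.5 and did not pass (log2 -0.54 ± 0.26, adjusted p = 0.154). In this wider list rises numbered 9 without E14.5 replicate 1, 2 without E14.5 replicates 2 or 4 or E18.5 replicates 2 or 3 and 3 without E18.5 replicate 1, and falls numbered 9 without E14.5 replicate 1, 2 without E14.5 replicates 2 or 4 or E18.5 replicate 1 and 3 without E18.5 replicates 2 or 3. The log2 fold change without E14.5 replicate 1 was 2.76 for Foxq1 and 2.69 for Eya2. Leaving out E14.5 replicates 2 or 4 or E18.5 replicates 1, 2 or 3 ended the calls of Foxq1, Eya2 and Isl1 (adjusted p 0.0556 to 0.101). For Eya1 the adjusted p rose to 0.0602 to 0.122 without any library other than E14.5 replicate 1. The call of Six2 was lost without E14.5 replicates 2 or 4 or E18.5 replicates 1 or 3 (adjusted p 0.0666 to 0.0916). Sox2 passed the test without E14.5 replicate 3 (adjusted p 0.0232).

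Posterior Hox genes, which set position along the trunk, had 4 falls and 1 rise among 15 (0 rises and 11 falls under pan-epithelial scaling). Hoxd12 was at 33.3, 61.6, 65.2 and 61.1 CPM at E14.5 and 20.1, 15.3 and 19.2 CPM at E18.5 (log2 -1.60 ± 0.24, adjusted p = 0.00456), lower in every E18.5 library. Hoxb9, Hoxd11 and Hoxd13 had log2 fold changes of -2.84, -0.67 and -0.54 (the groups overlapped for Hoxd13), and Hoxa11 rose by 0.64, a direction that turned under pan-epithelial scaling. The more anterior Hoxd1 was among the 15 largest falls, from 9.404, 43.5, 24.6 and 30.2 CPM to 1.82, 1.07 and 1.53 CPM (log2 -4.20 ± 0.54). Sense and antisense transcripts of the Hox clusters overlap, and it is not known here whether reads were counted by strand. Posterior Hox rises numbered 3 without E14.5 replicate 1, and falls numbered 2 without E14.5 replicates 2, 3 or 4 or E18.5 replicate 3 and 1 without E18.5 replicates 1 or 2. Dropping E14.5 replicate 3 gave -2.07 for Hoxb9 on the log2 scale. Hoxb9 lost the call without E18.5 replicates 1 or 2 (adjusted p 0.0655 to 0.0744). Leaving out any library other than E14.5 replicate 1 ended the calls of Hoxd11 and Hoxd13 (adjusted p 0.0503 to 0.141). For Hoxa11 the adjusted p rose to 0.0511 to 0.0689 without E14.5 replicates 2 or 4 or E18.5 replicates 1, 2 or 3.

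Hedgehog response genes fell while the ligand did not pass. Shh was at 379, 520.0, 292 and 372 CPM at E14.5 and 405, 299.9 and 413 CPM at E18.5 (log2 -0.07 ± 0.20, adjusted p = 0.826), with overlapping groups. Ptch1, a receptor gene induced by the pathway, was at 173, 331, 364 and 334 CPM at E14.5 and 125, 93.7 and 128 CPM at E18.5 (log2 -1.38 ± 0.26, adjusted p = 0.00853). Gli1, a direct target, was at 14.9, 63.5, 80.2 and 81.4 CPM at E14.5 and 17.03, 21.9 and 14.4 CPM at E18.5 (log2 -1.76 ± 0.52), with E14.5 replicate 1 inside the E18.5 range. In both Ptch1 and Gli1 E14.5 replicate 1, the library with the least mesenchymal RNA, was the lowest of its group. With a mesenchyme score as a covariate in the fit, 8 of the 15 members fell and 2 rose. Of all 17548 tested genes, 3248 fell and 3852 rose in that fit. The part of mesenchymal RNA in these falls was not tested apart from it. Gli3, the main repressor of Hedgehog targets, was at 50.9, 67.2, 86.9 and 79.5 CPM at E14.5 and 27.7, 18.9 and 29.7 CPM at E18.5 (log2 -1.48 ± 0.23), while Sufu, a Gli inhibitor, Smo, the signal transducer, and Disp1, which releases the ligand, had log2 fold changes of -0.69, -0.48 and -0.52. Of the 15 pathway genes 7 fell and none rose, and 11 fell under pan-epithelial scaling. Hedgehog falls numbered 4 without E18.5 replicates 1 or 2. The call of Gli1 was lost without any library other than E14.5 replicate 1 (adjusted p 0.0769 to 0.113). Smo lost the call without E18.5 replicate 2 (adjusted p 0.0513). Without E14.5 replicates 2, 3 or 4 or E18.5 replicates 1 or 2, Disp1 no longer passed (adjusted p 0.0574 to 0.105).

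Genes of the Wnt lists, which hold ligands, targets and inhibitors, fell more often than they rose. Among 15 Wnt ligands 6 fell and 1 rose. Wnt6, a ligand of surface epithelia, was at 73.99, 86.4, 64.1 and 96.5 CPM at E14.5 and 41.2, 37.5 and 38.4 CPM at E18.5 (log2 -1.04 ± 0.15), and Wnt2b, Wnt11 and Wnt3 had log2 fold changes of -1.61, -1.52 and -2.04. Wnt9b, the ligand of nephric duct epithelium, was at 0.645, 5.43, 44.1 and 7.19 CPM at E14.5 and 0, 0.06296 and 0.0587 CPM at E18.5 and was highest in E14.5 replicate 3, the library with the most mesenchymal and erythroid RNA of its group. Wnt4 rose, to 508, 422 and 492 CPM from 356, 205, 114 and 164 CPM (log2 1.18 ± 0.34). Wnt ligand rises numbered 3 without E14.5 replicate 1, and falls numbered 3 without E14.5 replicates 2 or 4 and 1 without E18.5 replicates 1 or 2. The fit that left out E14.5 replicate 3 gave a log2 fold change of -6.49 for Wnt9b. Without E18.5 replicate 3 the log2 fold change was -2.99 for Wnt3. For Wnt2b and Wnt9b the adjusted p rose to 0.0544 to 0.0748 without E18.5 replicates 1 or 2. The calls of Wnt11 and Wnt4 were lost without E14.5 replicates 2 or 4 or E18.5 replicates 1, 2 or 3 (adjusted p 0.051 to 0.105). Wnt3 lost the call without E14.5 replicates 2, 3 or 4 or E18.5 replicates 1 or 2 (adjusted p 0.055 to 0.141).

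Targets of the pathway had 5 falls and 1 rise among 17. With the mesenchyme covariate they had 8 falls and 1 rise, in a fit where 3248 of all 17548 tested genes fell. The part of mesenchymal RNA in these falls was not tested apart from it. Lef1, a DNA-binding partner of beta-catenin, was at 6.22, 39.1, 47.4 and 36.7 CPM at E14.5 and 10.4, 6.14 and 7.16 CPM at E18.5 (log2 -2.04 ± 0.60), and Notum, a secreted Wnt deacylase, at 3.09, 18.4, 19.3 and 22.4 CPM at E14.5 and 3.55, 4.19 and 2.97 CPM at E18.5 (log2 -2.14 ± 0.59), and in both E14.5 replicate 1 lay within the E18.5 range. Rnf43 and Znrf3, the ubiquitin ligases that remove Wnt receptors, and Bambi had log2 fold changes of -0.73, -0.62 and -0.60. Lgr6, an R-spondin receptor that marks stem cells of skin, went the other way, from 4.01, 3.403, 4.09 and 3.66 CPM to 29.1, 26.6 and 31.4 CPM (log2 2.94 ± 0.14, adjusted p = 0.000247), with the smallest adjusted p of the Wnt genes. Of 14 secreted or receptor-level inhibitors 4 fell: Frzb at 2.904, 8.92, 15.4 and 9.804 CPM at E14.5 and 0.911, 1.48 and 0.9396 CPM at E18.5, Kremen2 (log2 -1.96), Sfrp2 (-0.91) and Dkk1 (-5.09), whose groups overlapped and which was not tested without E14.5 replicates 2, 3 or 4. Wnt target falls numbered 9 without E14.5 replicate 1, 0 without E14.5 replicate 2 or E18.5 replicate 2, 2 without E14.5 replicate 3 or E18.5 replicate 3 and 1 without E14.5 replicate 4 or E18.5 replicate 1. Among the inhibitors rises numbered 2 without E14.5 replicate 1. Leaving out any library other than E14.5 replicate 1 ended the calls of Lef1 and Notum (adjusted p 0.0599 to 0.131). For Rnf43 and Znrf3 the adjusted p rose to 0.0517 to 0.104 without E14.5 replicates 2 or 4 or E18.5 replicates 1 or 2. The call of Bambi was lost without E14.5 replicates 2 or 3 or E18.5 replicates 2 or 3 (adjusted p 0.0596 to 0.107). Dkk1 lost the call without E18.5 replicates 1, 2 or 3 (adjusted p 0.082 to 0.0935).

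EGF family ligands rose together. Of 14 members 6 rose and none fell, and the 6 were 5 ligands of EGF receptors and the feedback inhibitor Errfi1. Areg (amphiregulin) was at 2.904, 0.517, 0.59 and 0.332 CPM at E14.5 and 15.98, 37.7 and 24.9 CPM at E18.5 (log2 4.61 ± 0.71, adjusted p = 0.00477), and Ereg (epiregulin) at 2.31, 0.0862, 0 and 0.249 CPM at E14.5 and 10.2, 20.02 and 15.8 CPM at E18.5 (log2 4.56 ± 1.08). Hbegf was at 15.3, 8.18, 7.796 and 7.603 CPM at E14.5 and 25.9, 38.6 and 26.98 CPM at E18.5 (log2 1.65 ± 0.28), and Btc and Tgfa rose by log2 2.25 and 1.59. Errfi1 rose by log2 1.00 ± 0.16. EGF family rises numbered 3 without E18.5 replicate 2. With E14.5 replicate 1 left out, the log2 fold change stood at 5.76 for Areg and 7.03 for Ereg. Without E14.5 replicates 2 or 4 or E18.5 replicate 2, Ereg no longer passed (adjusted p 0.0502 to 0.0652). For Btc the adjusted p rose to 0.0633 without E18.5 replicate 2. The call of Tgfa was lost without E14.5 replicate 2 or E18.5 replicates 1 or 2 (adjusted p 0.0515 to 0.0595).

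FGF pathway genes had 6 rises and 2 falls among 22, and 1 rise and 7 falls under pan-epithelial scaling. The feedback inhibitors of ERK signalling Spry2 (log2 1.29 ± 0.20) and Dusp6 (1.13 ± 0.25) rose, as did Etv4, an ETS factor induced by FGF (0.83 ± 0.23), and Fgf7, a ligand usually made by mesenchyme, at 0.507, 0.689, 1.26 and 0.5401 CPM at E14.5 and 2.69, 4.502 and 2.73 CPM at E18.5. The 2 falls were epithelial ligands, Fgf9 (log2 -1.69 ± 0.34) and Fgf20 (-1.59 ± 0.36). FGF rises numbered 3 without E14.5 replicates 2 or 4 or E18.5 replicates 2 or 3. Etv4 lost the call without E14.5 replicates 2 or 4 or E18.5 replicates 2 or 3 (adjusted p 0.0531 to 0.118). Without E18.5 replicate 2, Fgf20 no longer passed (adjusted p 0.0609).

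BMP pathway genes had 4 rises and 2 falls among 20 (30%), near the 28.7% of all tested genes, and 0 and 7 under pan-epithelial scaling. The ligands Bmp2 and Bmp6 rose by log2 1.27 and 1.49, and the targets Id1 and Id2 by 0.71 and 0.99. Bmp4 fell from 18.6, 76.3, 99.1 and 77.8 CPM to 20.5, 24.5 and 22.3 CPM with E14.5 replicate 1 below all E18.5 libraries (log2 -1.60 ± 0.48), and the type I receptor Bmpr1b fell (log2 -1.53 ± 0.19). None of the 19 tested Notch genes passed in edgeR's test with all 7 libraries (1 at an unadjusted p under 0.05, 1 called by DESeq2 and 1 by limma voom), and 4 rose and 1 fell without E14.5 replicate 1. BMP falls numbered 4 without E14.5 replicate 1. For Bmp2 the adjusted p rose to 0.0545 without E18.5 replicate 3. The call of Bmp4 was lost without any library other than E14.5 replicate 1 (adjusted p 0.0811 to 0.121).

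Retinoic acid genes had 3 rises and 4 falls among 17 (0 and 7 under pan-epithelial scaling), with opposite changes of 2 synthesis enzymes. Aldh1a1 fell from 50.1, 36.4, 33.8 and 42.4 CPM to 22.6, 15.2 and 18.9 CPM, and Aldh1a2 went from 140.2, 114, 193 and 111 CPM to 288, 257 and 322 CPM (log2 -1.11 ± 0.19 and 1.05 ± 0.20). The receptor Rarb, itself a target of the pathway, fell (log2 -1.20 ± 0.14), as did Rdh10, which makes retinal (-1.02). Crabp2, the carrier that brings retinoic acid to the nucleus, and Dhrs3, a retinal reductase, rose by log2 1.28 and 1.01. Retinoic acid rises numbered 1 without E18.5 replicate 2, and falls numbered 2 without E14.5 replicates 2 or 4 or E18.5 replicates 1, 2 or 3. Rdh10 and Dhrs3 lost their calls without E14.5 replicates 2 or 4 or E18.5 replicates 1, 2 or 3 (adjusted p 0.0501 to 0.0785). Without E18.5 replicate 2, Crabp2 no longer passed (adjusted p 0.0531).

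Of 7 steroid receptor genes only Esr1, the estrogen receptor, passed, at 18.8, 21.02, 13.1 and 14.5 CPM at E14.5 and 59.1, 52.6 and 48.7 CPM at E18.5 (log2 1.66 ± 0.18, adjusted p = 0.00208), with every E18.5 library above every E14.5 library. Genes commonly induced by glucocorticoids rose in 7 of 13 and fell in none, but had 2 rises and 3 falls under pan-epithelial scaling. Sgk1, a kinase that acts on sodium transport, was at 14.1, 17.4, 21.2 and 16.5 CPM at E14.5 and 76.2, 69.5 and 81.7 CPM at E18.5 (log2 2.13 ± 0.15, adjusted p = 0.00092). Zbtb16 was at 0.277, 0.56, 0.59 and 0.125 CPM at E14.5 and 1.503, 2.33 and 5.29 CPM at E18.5 (log2 2.96 ± 0.60), and Klf9, Per1 and Hif3a rose by log2 1.31, 0.87 and 1.15, with overlapping groups for Hif3a. Leaving out E18.5 replicate 3 gave a log2 fold change of 2.28 for Zbtb16. For Hif3a the adjusted p rose to 0.0604 to 0.114 without any library other than E14.5 replicate 1.

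Mucosal defence genes rose. Of 27 in the count tables, 9 did not pass the filter on low counts. Of the 18 tested genes 16 rose and none fell (median log2 2.26). Members near 0 at E14.5, such as Cxcl17, could not have been seen to fall. Ly6e, a surface protein that limits viral entry, was at 53.5, 53.6, 61.6 and 44.9 CPM at E14.5 and 253, 254 and 268 CPM at E18.5 (log2 2.27 ± 0.12, adjusted p = 0.000257). Cd14, the endotoxin co-receptor, was at 5.03, 2.07, 2.99 and 1.41 CPM at E14.5 and 50.04, 37.05 and 28.2 CPM at E18.5 (log2 3.74 ± 0.41), and Defb1, an antimicrobial beta-defensin, at 1.06, 0.388, 0.632 and 0.249 CPM at E14.5 and 7.01, 12.9 and 8.46 CPM at E18.5 (log2 4.02 ± 0.47). Cxcl17, a mucosal chemokine, had 2 counts in the E14.5 libraries together and 3.64, 5.48 and 1.64 CPM at E18.5, a ratio with a 95% counting interval of 44.9 to 1358. Tlr4, which signals with Cd14, and Cxcl15 rose by log2 2.62 and 1.88. Markers of macrophages and leukocytes summed to 31.4 to 74.1 CPM at E14.5 and 73.5 to 85.3 CPM at E18.5, 1 of 11 rose (Cd68, log2 1.17 ± 0.28), and their part in these gains was not tested. Defence rises numbered 10 without E14.5 replicate 2 or E18.5 replicate 1. In the fit without E14.5 replicate 1 the log2 fold change was 3.39 for Tlr4. Without E14.5 replicate 2 the remaining E14.5 libraries had 0 counts of Cxcl17, and no fold is given. The call of Cd68 was lost without E14.5 replicate 2 or E18.5 replicates 1 or 2 (adjusted p 0.0624 to 0.0689).

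Interferon response and MHC class I genes rose in 15 of 22 and fell in 1. Irf7, the factor that drives interferon genes, was at 1.48, 0.775, 0.548 and 0.665 CPM at E14.5 and 4.96, 5.92 and 5.96 CPM at E18.5 (log2 2.70 ± 0.36). Psmb9, an immunoproteasome subunit, was at 1.34, 0.56, 0.59 and 0.498 CPM at E14.5 and 3.92, 4.91 and 2.85 CPM at E18.5 (log2 2.38 ± 0.41), and Oas2 rose by log2 2.55. H2-K1 and H2-D1 rose by log2 2.25 and 2.24, and reads of these similar genes may be shared. Ifit2 fell (-1.09 ± 0.19). Interferon and MHC rises numbered 8 without E18.5 replicate 1. 

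Of 32 mucin and secretory genes in the count tables, 14 did not pass the filter on low counts. Among the 18 tested, 10 rose and none fell. Members near 0 at E14.5, such as Ltf, could not have been seen to fall. Muc1, a membrane mucin, was at 2.95, 2.07, 1.601 and 1.83 CPM at E14.5 and 28.8, 29.2 and 18.97 CPM at E18.5 (log2 3.60 ± 0.26, adjusted p = 0.0011). Reg3g, a C-type lectin that kills Gram-positive bacteria, was at 1.34, 1.12, 1.77 and 0.332 CPM at E14.5 and 32.2, 23.99 and 29.5 CPM at E18.5 (log2 4.65 ± 0.43). Ltf (lactotransferrin) had 0 counts at E14.5 and 13.5, 11.96 and 0.646 CPM at E18.5. Its E18.5 mean was 269 times the level of 3 counts over the whole E14.5 group, which a count of 0 allows. That figure covers no spread between the E18.5 libraries, and E18.5 replicate 3 lay far below the others. Agr2, a protein folding enzyme of mucous cells, rose by log2 1.74, Clca2 by 1.74 and Clca1 by 3.05, and the Clca genes are close paralogs. Mucin and secretory rises numbered 5 without E14.5 replicate 2, 6 without E18.5 replicate 1 and 3 without E18.5 replicate 2. The log2 fold change without E14.5 replicate 1 was 4.05 for Clca1. Ltf and Agr2 lost their calls without E18.5 replicate 2 (adjusted p 0.0514 to 0.062). Without E14.5 replicate 2 or E18.5 replicate 2, Clca1 no longer passed (adjusted p 0.0537 to 0.0615).

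Transport genes rose in 16 of 27 and 1 fell. Slc34a2, a phosphate carrier of secretory epithelia, also had 0 counts at E14.5 and stood at 13.9, 7.08 and 14.5 CPM at E18.5. Its E18.5 mean was 366 times the level that a count of 0 allows, by the rule used for Ltf. Slc26a9, an anion channel of airway and stomach, was at 0.461, 0.345, 0.295 and 0.0831 CPM at E14.5 and 4.14, 8.28 and 3.82 CPM at E18.5 (log2 4.18 ± 0.52). Scnn1a, the alpha subunit of the epithelial sodium channel, was at 16, 6.03, 5.56 and 5.07 CPM at E14.5 and 54.5, 57.04 and 43.5 CPM at E18.5 (log2 2.66 ± 0.40), and Car13 and Slc12a2 rose by log2 2.40 and 1.00. Cftr, the cyclic AMP-gated chloride channel, was the member that fell, from 27.1, 21.9, 26.6 and 20.9 CPM to 12.2, 8.28 and 11.2 CPM (log2 -1.20 ± 0.18). Transport rises numbered 9 without E18.5 replicate 2. 

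Neuroendocrine genes rose in 5 of 18 and fell in none. Scattered neuroendocrine cells of the urethra store serotonin and peptides. Calca, the calcitonin and CGRP gene, was at 1.199, 0.991, 1.18 and 1.58 CPM at E14.5 and 13.8, 14.8 and 11.4 CPM at E18.5 (log2 3.43 ± 0.23, adjusted p = 0.00092), and Tph1, the enzyme that starts serotonin synthesis outside the brain, at 0.784, 0.517, 0.759 and 0.249 CPM at E14.5 and 14.6, 14.6 and 10.4 CPM at E18.5 (log2 4.51 ± 0.37). The granule proteins Chga and Scg2 were at 1.29, 2.28, 5.61 and 2.78 CPM at E14.5 and 19.8, 17.2 and 19.6 CPM at E18.5, and 0.645, 0.775, 0.927 and 0.415 CPM at E14.5 and 10.9, 7.398 and 13.9 CPM at E18.5, in that order. Pcsk1, a prohormone convertase, was at 1.29, 0, 0.337 and 0.166 CPM at E14.5 and 33.1, 29.2 and 30.4 CPM at E18.5. The other 13 members, among them factors and general neuronal genes, did not pass, and markers of neurons and glia had 0 of 10 calls in edgeR's test, DESeq2 and limma voom and 0 at an unadjusted p under 0.05, with summed levels of 48.8, 57.4 and 271 CPM at E18.5. Neuroendocrine falls numbered 3 without E18.5 replicate 3. Neuron and glia falls numbered 3 without E18.5 replicate 3. Dropping E14.5 replicate 1 gave 7.48 for Pcsk1 on the log2 scale.

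Of 7 tested hindgut markers 6 rose, Krt20 above among them. Vil1 (villin), a microvillus protein, was at 1.798, 0.517, 0.337 and 0.789 CPM at E14.5 and 26.2, 26.9 and 20.4 CPM at E18.5 (log2 4.83 ± 0.49). Gpa33, Lgals4, Hnf4a and Cdh17 rose by log2 2.49, 1.94, 2.21 and 2.57. The intestinal master factors Cdx1 and Cdx2 and the absorptive gene Fabp2 were too low to be tested. The fit that left out E14.5 replicate 1 gave log2 fold changes of 5.47 for Vil1 and 3.17 for Gpa33. Without E14.5 replicate 3 the log2 fold change was 3.36 for Cdh17. With E18.5 replicate 2 left out, the log2 fold change stood at 1.74 for Cdh17. For Cdh17 the adjusted p rose to 0.0548 to 0.118 without E14.5 replicates 2 or 4 or E18.5 replicates 1 or 2.

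Every one of the 30 tested cell cycle and mitosis genes fell, by a median of log2 -1.30, and the groups did not overlap for 29 of them. Kif11, the kinesin that separates spindle poles, was at 84.1, 107, 114 and 99.5 CPM at E14.5 and 32.3, 34.5 and 38.99 CPM at E18.5 (log2 -1.52 ± 0.13, adjusted p = 0.00163). Its E14.5 mean was 2.86 times the E18.5 mean, and E14.5 replicate 1 lay with its own group. Mki67, a marker of dividing cells, was at 272, 279, 354 and 287 CPM at E14.5 and 98.3, 95.1 and 128 CPM at E18.5 (log2 -1.48 ± 0.15). Bub1, Bub1b, Aurka and Ccna2, which run the spindle checkpoint, the centrosome and entry into mitosis, had log2 fold changes of -1.59, -1.64, -1.46 and -1.42, and Cdc20, the activator of anaphase, of -1.26. All 30 fell without E14.5 replicate 1 and under pan-epithelial scaling, and 28 passed in every fit that left out 1 library. Among 6 inhibitors of cyclin-dependent kinases 3 rose: Cdkn1b at 52.7, 53.5, 52.2 and 65.6 CPM at E14.5 and 76.3, 98.2 and 81.7 CPM at E18.5 (log2 0.61 ± 0.13), Cdkn1a (log2 1.58) and Cdkn2b (1.73). Inhibitor rises numbered 1 without E14.5 replicates 2 or 4 or E18.5 replicates 1, 2 or 3. Leaving out E14.5 replicate 1 gave a log2 fold change of 2.49 for Cdkn2b. The call of Cdkn1a was lost without E14.5 replicates 2 or 4 or E18.5 replicates 1, 2 or 3 (adjusted p 0.0527 to 0.0631). Cdkn2b lost the call without any library other than E14.5 replicate 1 (adjusted p 0.0655 to 0.122).

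Promoters of mitotic genes are shown because the whole list fell together and many of them hold a pair of known elements: the cell cycle genes homology region (CHR, searched as TTTGAA or TTCGAA) and the CCAAT box, both on either strand. Kif11, Bub1 and Cdc20 were chosen because both elements lie within the printed window, which runs from 120 bases before to 30 after the RefSeq start in GRCm38.p6. Capitals mark either element.
Kif11 (chr19:37376262-37376411, plus strand): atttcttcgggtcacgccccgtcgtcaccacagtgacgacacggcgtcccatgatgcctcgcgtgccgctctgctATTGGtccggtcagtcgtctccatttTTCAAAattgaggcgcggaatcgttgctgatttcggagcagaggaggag
Bub1 (chr2:127831830-127831979, minus strand): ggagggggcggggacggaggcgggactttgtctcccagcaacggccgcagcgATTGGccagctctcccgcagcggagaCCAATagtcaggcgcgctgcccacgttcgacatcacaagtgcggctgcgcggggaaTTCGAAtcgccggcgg
Cdc20 (chr4:118437314-118437463, minus strand): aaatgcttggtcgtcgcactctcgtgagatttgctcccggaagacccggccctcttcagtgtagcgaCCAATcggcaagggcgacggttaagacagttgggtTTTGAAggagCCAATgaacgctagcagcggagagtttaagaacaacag
In Kif11 the CHR letters start 19 bases and the CCAAT letters 45 bases before the start. In Cdc20 they start 18 bases before it and, for CCAAT, 53 and 8 bases before it. In Bub1 the CHR letters start at base 15 of the transcript and CCAAT letters 68 and 42 bases upstream. Of the 24 list members with a RefSeq promoter of 300 bases, 13 held the CHR letters (54.2%) against 21.7% of the 27025 genes with a promoter, and 20 held CCAAT (83.3%) against 41.1%. Neither share is a test of binding.

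Genes of early developmental timing fell as well, 10 of 12 tested with no rise (median log2 -1.11). Lin28b, which blocks maturation of the let-7 microRNAs, was at 1.34, 3.58, 3.96 and 2.83 CPM at E14.5 and 0.182, 0.252 and 0.235 CPM at E18.5 (log2 -3.67 ± 0.47, adjusted p = 0.00287). Hmga2, an architectural chromatin protein repressed by let-7, was at 72.8, 244, 385 and 241 CPM at E14.5 and 16.4, 18.01 and 19.6 CPM at E18.5 (log2 -3.71 ± 0.52). Its E14.5 mean was 13.1 times the E18.5 mean, and E14.5 replicate 1 held less than the other 3 libraries of its stage. Mycn was at 78.4, 136, 93.5 and 114 CPM at E14.5 and 28.3, 15.7 and 23.5 CPM at E18.5 (log2 -2.23 ± 0.26), Igf2bp1 and Igf2bp3, fetal RNA-binding proteins, had log2 fold changes of -1.34 and -0.88, and Sall4 was at 1.29, 7.24, 13.8 and 6.398 CPM at E14.5 and 0.455, 0.06296 and 0.117 CPM at E18.5. The let-7 RNAs themselves are not measured in poly(A) libraries. In the fit without E18.5 replicate 1 the log2 fold change was -6.23 for Sall4.

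Imprinted regulators of fetal growth fell in 7 of 17 and none rose. Igf2, the fetal growth factor, was at 130.1, 124, 159 and 114 CPM at E14.5 and 30.2, 35.6 and 34.6 CPM at E18.5 (log2 -1.98 ± 0.14, adjusted p = 0.000921). Its neighbour H19, a noncoding RNA from the other parental copy, was at 4509, 4030.0, 4451 and 3601 CPM at E14.5 and 1746, 1712 and 2056 CPM at E18.5 (log2 -1.17 ± 0.14). Grb10, a brake on insulin receptors, and Peg3 had log2 fold changes of -1.08 and -1.30, Slc38a4 of -2.18 and Peg12 of -1.15. E14.5 replicate 1 lay with the E14.5 libraries for Igf2 and H19. 

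**Figure D5:**
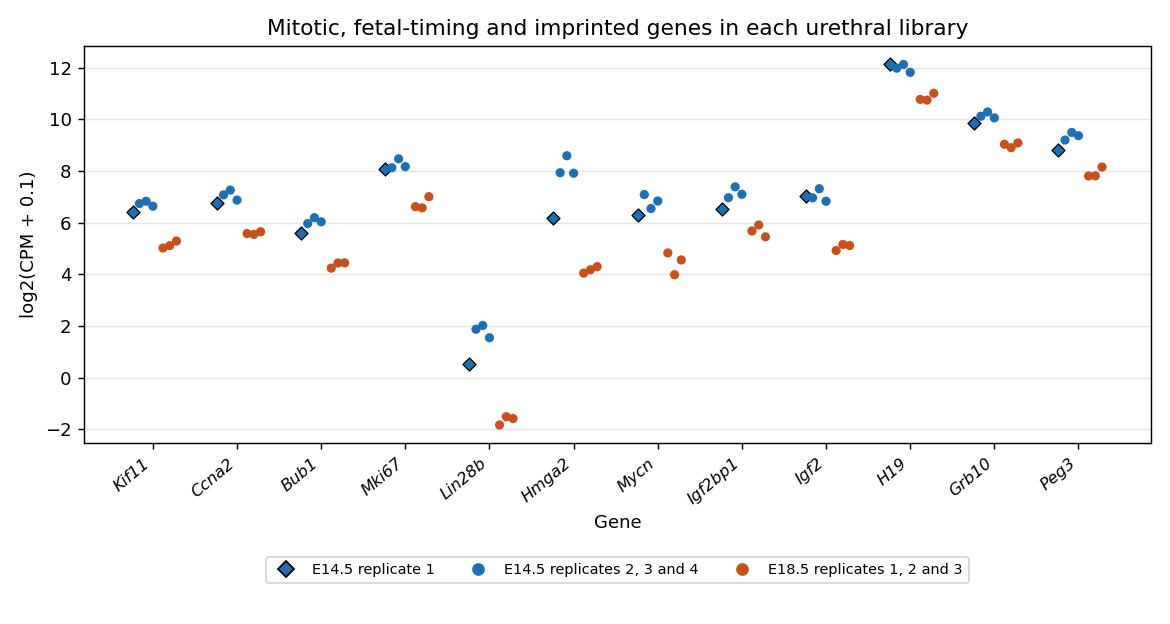
CPM of 12 genes in each urethral library as log2(CPM + 0.1), E14.5 in blue with replicate 1 as a diamond and E18.5 in orange. All 12 genes separate the stages with no overlap, and E14.5 replicate 1 stays on the E14.5 side.

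Immediate early and stress genes rose in 15 of 21 and fell in none (10 and 3 under pan-epithelial scaling). Such genes are known to respond within minutes to growth factors and to handling of tissue. Junb was at 59, 37.3, 20.2 and 27.7 CPM at E14.5 and 147, 139.6 and 127 CPM at E18.5 (log2 1.94 ± 0.32). Gadd45b, Ier3 and Zfp36 rose by log2 2.43, 2.53 and 1.74. The heat shock genes Hspa1a and Hspa1b rose by log2 2.06 and 1.85, and these are near-identical copies whose reads may be shared. Immediate early and stress rises numbered 8 without E14.5 replicate 2 and 9 without E14.5 replicate 4 or E18.5 replicate 2. 

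Among metabolic lists, 33.3% of tested lipid genes and 39.1% of tested detoxification genes passed, against 28.7% of all tested genes. The lipid share was near that of all genes. Of 25 tested oxidative phosphorylation genes none passed in edgeR's test (2 at an unadjusted p under 0.05, 1 called by DESeq2 and 0 by limma voom, 1 rose without E14.5 replicate 1, and 14 fell under pan-epithelial scaling). Of 18 glycolysis genes 2 rose, Pfkp (log2 1.36 ± 0.35) and Aldoa (0.88 ± 0.28), with 1 rise and 2 falls under pan-epithelial scaling. Of 22 cholesterol synthesis genes only Sc5d rose (0.56 ± 0.17), and its direction turned under pan-epithelial scaling. Lipid genes had 8 rises and 1 fall among 27 (2 and 5 under pan-epithelial scaling), with Fabp4, a fatty acid carrier, at 9.13, 0.259, 0.674 and 0.332 CPM at E14.5 and 22.2, 87.6 and 139 CPM at E18.5, Elovl5 and Plin3 higher by log2 0.76 and 0.65, and Fasn, which makes palmitate, lower (-0.62 ± 0.12). Detoxification genes rose in 9 of 23. Gsto1, a glutathione transferase, was at 75.5, 43.6, 40.2 and 40.4 CPM at E14.5 and 402, 719 and 224 CPM at E18.5 (log2 3.17 ± 0.40), and Adh7, a retinol and alcohol dehydrogenase of upper digestive epithelium, at 5.44, 1.21, 1.26 and 1.29 CPM at E14.5 and 21.4, 28.3 and 24.9 CPM at E18.5 (log2 3.44 ± 0.55), while Fmo2 and Cbr2 rose by log2 2.56 and 2.07. Glycolysis rises numbered 14 without E14.5 replicate 1 and 0 without E14.5 replicates 2 or 4 or E18.5 replicates 1, 2 or 3. Cholesterol synthesis rises numbered 5 without E14.5 replicate 1. Lipid rises numbered 14 without E14.5 replicate 1, 4 without E14.5 replicate 2 or E18.5 replicates 1 or 3, 5 without E14.5 replicate 4 and 3 without E18.5 replicate 2, and falls numbered 3 without E14.5 replicate 1. Detoxification rises numbered 16 without E14.5 replicate 1. The log2 fold change without E14.5 replicate 1 was 7.61 for Fabp4 and 4.31 for Adh7. Dropping E18.5 replicate 3 gave 4.41 for Fabp4 on the log2 scale. Leaving out any library other than E14.5 replicate 1 ended the calls of Pfkp and Aldoa (adjusted p 0.054 to 0.127). For Sc5d the adjusted p rose to 0.0599 to 0.119 without E14.5 replicates 2, 3 or 4 or E18.5 replicates 1 or 2. The call of Fabp4 was lost without E18.5 replicates 2 or 3 (adjusted p 0.0527 to 0.0578).

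Muscle RNA was higher at E18.5. All 11 skeletal muscle markers rose, 4 of them in every fit that left out 1 library, and their summed level was 61.7, 5.64, 34.9 and 9.31 CPM at E14.5 and 308, 613 and 395 CPM at E18.5. Ckm, the muscle creatine kinase, was at 0.277, 0, 0 and 0 CPM at E14.5 and 20.2, 42.1 and 30.9 CPM at E18.5. Tnnt3, Acta1 and Myh8, parts of the sarcomere, rose by log2 3.62, 5.89 and 3.60. Of 10 smooth muscle genes 7 rose and 2 fell, with sums of 500 to 714 CPM and 1095 to 2499 CPM. Actg2 was at 49.1, 24.4, 39.02 and 28.8 CPM at E14.5 and 175, 552 and 375 CPM at E18.5 (log2 3.38 ± 0.40), Tagln, Cnn1 and Des rose by log2 3.37, 2.70 and 3.11, and Myocd, the factor that switches on smooth muscle genes, and Synpo2 fell (-1.39 and -0.53). Skeletal muscle rises numbered 7 without E14.5 replicate 4 and 4 without E18.5 replicate 2. Smooth muscle falls numbered 0 without E14.5 replicate 2 or E18.5 replicate 1. The fit that left out E14.5 replicate 1 gave log2 fold changes of 7.08 for Acta1 and 4.35 for Myh8. Without E18.5 replicate 2 the log2 fold change was 2.45 for Des. Without E14.5 replicate 1 the remaining E14.5 libraries had 0 counts of Ckm, and no fold is given. Myocd lost the call without E14.5 replicates 2, 3 or 4 or E18.5 replicates 1 or 3 (adjusted p 0.0616 to 0.112). Without E14.5 replicate 2 or E18.5 replicates 1 or 2, Synpo2 no longer passed (adjusted p 0.0988 to 0.128).

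Of 18 mesenchymal genes 3 rose and 2 fell, a share near that of all genes (0 and 5 under pan-epithelial scaling). Dcn (decorin) was at 166, 137, 124 and 164 CPM at E14.5 and 365, 307 and 333 CPM at E18.5 (log2 1.18 ± 0.13), and Col6a1 and Col6a2 rose by 0.95 and 0.80. Pdgfra, the receptor that marks fibroblasts, was at 86.6, 296, 351 and 331 CPM at E14.5 and 63.1, 95.2 and 104.6 CPM at E18.5 (log2 -1.60 ± 0.45) with E14.5 replicate 1 inside the E18.5 range, and Twist1 fell (-1.82 ± 0.40). Of 6 tested mast cell genes 2 fell, Kit (-1.41 ± 0.14) and Hdc, the histamine enzyme, at 2.58, 14.5, 78.4 and 18.6 CPM at E14.5 and 0.637, 1.196 and 1.44 CPM at E18.5. None of 10 endothelial genes passed in edgeR's test, DESeq2 or limma voom, and 0 had an unadjusted p under 0.05 in edgeR's test. Mesenchymal rises numbered 7 without E14.5 replicate 3 and 1 without E18.5 replicates 2 or 3, and falls numbered 5 without E14.5 replicate 1 and 0 without E18.5 replicate 1. Endothelial falls numbered 2 without E14.5 replicate 1. With E14.5 replicate 3 left out, the log2 fold change stood at -3.43 for Hdc. For Col6a1 the adjusted p rose to 0.053 to 0.0576 without E18.5 replicates 2 or 3. The call of Col6a2 was lost without E14.5 replicate 2 or E18.5 replicates 2 or 3 (adjusted p 0.0625 to 0.0721). Pdgfra lost the call without any library other than E14.5 replicate 1 (adjusted p 0.0649 to 0.11). Without E18.5 replicate 1, Twist1 no longer passed (adjusted p 0.0546). For Hdc the adjusted p rose to 0.0535 to 0.075 without E18.5 replicates 1, 2 or 3.

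Nephric and Müllerian duct genes fell in 5 of 10 and none rose. Pax2, a kidney lineage factor, was at 2.07, 11.8, 39.2 and 9.72 CPM at E14.5 and 0, 0.0315 and 0.558 CPM at E18.5 (log2 -6.15 ± 1.33), Lhx1 at 0.599, 5.04, 11.3 and 3.32 CPM at E14.5 and 0.0455, 0.06296 and 0.176 CPM at E18.5 (log2 -5.59 ± 1.09), and Cdh16, the kidney cadherin, at 7.47, 38.5, 118 and 37.5 CPM at E14.5 and 0, 0.126 and 1.06 CPM at E18.5 (log2 -6.84 ± 1.26). Emx2 had a log2 fold change of -4.49, and Wnt9b is given above. These genes were spread widely within E14.5, lowest in replicate 1 and highest in replicate 3. Other large falls had the same order, namely Kcnj16 at 0.876, 2.8, 19.4 and 2.83 CPM at E14.5 and 0, 0 and 0.117 CPM at E18.5, Pou3f3 at 0.553, 4.18, 20.2 and 3.697 CPM at E14.5 and 0, 0.06296 and 0.117 CPM at E18.5, and Kif12 and Dcdc2a with log2 fold changes of -5.15 and -4.59. Duct gene falls numbered 8 without E14.5 replicate 1, 3 without E18.5 replicate 1 and 2 without E18.5 replicate 2. Leaving out E14.5 replicate 3 gave log2 fold changes of -5.18 for Pax2, -4.84 for Lhx1, -6.00 for Cdh16, -3.35 for Emx2, -5.47 for Kcnj16, -5.31 for Pou3f3, -4.47 for Kif12 and -3.71 for Dcdc2a. In the fit without E18.5 replicate 3 the log2 fold change was -9.40 for Pax2, -6.40 for Lhx1, -9.34 for Cdh16, -5.21 for Emx2 and -7.45 for Pou3f3. Without E18.5 replicate 3 the remaining E18.5 libraries had 0 counts of Kcnj16, and no fold is given. The call of Pax2 was lost without E18.5 replicate 2 (adjusted p 0.0583). Emx2 lost the call without E14.5 replicate 2 or E18.5 replicates 1, 2 or 3 (adjusted p 0.0505 to 0.0956). Leaving out E18.5 replicates 1 or 2 ended the calls of Kcnj16 and Pou3f3 (adjusted p 0.0523 to 0.0625).

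The largest fall among the named genes was Hbb-y, the embryonic epsilon-type globin of yolk sac red cells, at 2.12, 52.2, 262 and 78.3 CPM at E14.5 and 0.0911, 0.126 and 0 CPM at E18.5 (log2 -10.39 ± 1.99). Hba-x, its alpha-type counterpart, had 2 counts at E18.5, a ratio of E14.5 to E18.5 with a 95% counting interval of 202 to 6053. Slc4a1, the red cell anion exchanger, had a log2 fold change of -2.86, while the summed erythroid level overlapped between stages (262 to 1078 and 251 to 554 CPM). Of the 10 tested erythroid genes 4 fell. Globin genes are close paralogs. Tll1, a secreted protease that acts on BMP antagonists, was at 3.32, 20.3, 20.3 and 39.4 CPM at E14.5 and 0.637, 0.661 and 0.528 CPM at E18.5 (log2 -5.09 ± 0.82). Erythroid falls numbered 2 without E18.5 replicates 1 or 3. The log2 fold change without E14.5 replicate 3 was -9.24 for Hbb-y and -8.23 for Hba-x. Dropping E18.5 replicate 2 gave -11.23 for Hbb-y and -3.54 for Slc4a1 on the log2 scale. The fit that left out E18.5 replicate 3 gave a log2 fold change of -9.74 for Hbb-y. Without E18.5 replicate 3 the remaining E18.5 libraries had 0 counts of Hba-x, and no fold is given. For Slc4a1 the adjusted p rose to 0.0503 to 0.0685 without E18.5 replicates 1 or 3.

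The remaining large rises belong to no list. Obp2a, an odorant-binding lipocalin, had 0 counts at E14.5 and stood at 2.32, 22.6 and 2.11 CPM at E18.5, so it was high in 1 of the 3 libraries. Its E18.5 mean, carried by that library, was 279 times the level that a count of 0 allows, by the rule used for Ltf. Ppbp, a platelet and epithelial chemokine, was at 0.645, 0.732, 0.759 and 0.166 CPM at E14.5 and 109, 90.4 and 13.7 CPM at E18.5 (log2 6.94 ± 0.79). Capn13, a calpain protease, was at 0.738, 0, 0.211 and 0 CPM at E14.5 and 16.4, 23.3 and 12.04 CPM at E18.5 (log2 6.20 ± 0.91), and Mroh4 at 0.692, 0, 0 and 0.0831 CPM at E14.5 and 25.6, 37.02 and 19.8 CPM at E18.5 (log2 7.17 ± 0.86). Without E14.5 replicate 1 the log2 fold change was 7.84 for Capn13 and 9.71 for Mroh4.

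To see which of these changes differed between compartments, the stage change in urethra was set against that in bladder in 1 fit of all 14 libraries. The interaction, the urethral minus the bladder log2 fold change, passed for 4183 of 18286 genes (22.9%), 1950 more positive (10.7%) and 2233 more negative (12.2%) in urethra. In bladder alone 7217 of 17481 genes passed between the stages (41.3%). Bladder libraries at E18.5 held far more mesenchymal RNA, with Col1a1 at a mean of 7499.7 CPM. With a mesenchyme score as a covariate 52 interactions passed, and under pan-epithelial scaling 290 were positive and 12497 negative with the median moved to -1.29. Of the 34 interactions that passed and are printed here or in the closing section, 3 passed with the covariate, while 16 kept at least 75% of their log2 size, among them Kif11 (-1.42), Krt14 (-6.33), Tmprss11g (7.70) and Reg3g (5.72), and 18 were smaller or turned, among them Lhx1 (-2.04), Hdc (-0.93) and Krt19 (0.45). Without urethra E18.5 replicate 1 there were 2654 interactions. The fit took all 14 libraries as independent, though same-numbered bladder and urethral libraries of a stage may share a litter. With those numbers as a block 4322 interactions passed. After removal of group means, same-numbered libraries correlated at 0.15, 0.131, 0.391 and -0.104 at E14.5 and 0.138, -0.146 and -0.189 at E18.5. Other-numbered libraries ran from -0.392 to 0.262 at E14.5 and from -0.268 to 0.359 at E18.5.

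Of the 13 suprabasal and mucosal keratins, 4 had a more positive stage change in urethra than in bladder, Krt13, Krt23, Krt78 and Krt79, and none a more negative one, while 9 did not pass. Krt13 had a log2 fold change of 8.95 in urethra and 3.56 in bladder (interaction 5.38, adjusted p = 0.00671), and Krt23 of 5.48 and 0.06 (interaction 5.42, adjusted p = 0.0016). The interaction passed for Tmprss11g (6.94), Krt78 (2.72), Krt79 (2.72) and Nccrp1 (5.31). It also passed for secretory and transport genes, Slc26a9 (8.56), Vil1 (6.69), Clca1 (6.24), Reg3g (6.08) and Muc1 (3.32). Other large positive values were those of S100g, a vitamin D-dependent calcium carrier (6.30), Neb, the sarcomere protein nebulin (6.10), and Tspan1, a tetraspanin (5.70). Slc26a9, Vil1 and Tspan1 also passed with the mesenchyme covariate, with interactions of 7.48, 5.12 and 5.33. Without bladder E14.5 replicate 3 the interaction was 3.63 for Nccrp1. With bladder E18.5 replicate 1 left out, the interaction stood at 9.24 for Slc26a9. Leaving out bladder E18.5 replicate 2 gave an interaction of 7.04 for Clca1, 6.01 for Krt13 and 3.97 for Muc1. Without urethra E14.5 replicate 1 the interaction was 7.25 for Clca1, 7.61 for Krt13, 6.27 for Krt23, 3.57 for Krt78, 6.99 for Neb, 7.75 for S100g, 7.96 for Tmprss11g and 7.33 for Vil1. With urethra E18.5 replicate 2 left out, the interaction stood at 4.77 for Krt23. The interaction of Nccrp1 did not pass without bladder E14.5 replicates 3 or 4 or urethra E14.5 replicate 2 (adjusted p 0.0525 to 0.369).

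The basal keratin Krt14 went the other way. It rose by log2 7.27 in bladder and did not pass in urethra (interaction -5.63, adjusted p = 0.0033), while Krt5 (-2.41, adjusted p = 0.0874) and Col17a1 (-1.66, adjusted p = 0.179) did not pass. The uroplakin genes Upk3a and Upk1b did not pass either (adjusted p = 0.881 and 0.423). Without bladder E14.5 replicate 1 the interaction was -2.56 for Col17a1, -6.59 for Krt14 and -3.62 for Krt5. With urethra E14.5 replicate 1 left out, the interaction stood at -4.86 for Krt14, 1.64 for Upk1b and 1.83 for Upk3a. The interaction of Col17a1 and Krt5 passed without bladder E14.5 replicate 1 (adjusted p 0.00381 to 0.0236). The interaction of Upk1b and Upk3a passed without urethra E14.5 replicate 1 (adjusted p 0.00177 to 0.0255).

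Of the 30 cell cycle and mitosis genes, 21 fell more in urethra than in bladder and none fell less (9 did not pass), with interactions of -1.20 for Kif11, -0.98 for Ccna2 and -1.11 for Mki67 (adjusted p = 0.00197, 0.00781 and 0.00596). Lin28b and Igf2 had interactions of -2.41 and -1.35 (adjusted p = 0.0175 and 0.0171), whereas Hmga2, Igf2bp1 and H19 did not pass (adjusted p = 0.533, 0.552 and 0.797). The Hedgehog targets Ptch1 and Gli1 had interactions of -3.14 and -3.75, and Shh one of 0.99, which turned to -0.27 under pan-epithelial scaling. With the mesenchyme covariate the interactions of Ptch1, Gli1 and Shh were -2.46, -1.49 and 0.48 and did not pass (adjusted p = 0.126, 0.752 and 0.91). In bladder alone Ptch1 and Gli1 rose, by log2 1.77 and 2.00. Sox9 (2.44) and Foxa1 (1.51) were more positive in urethra, though the interaction of Foxa1 was 0.32 under pan-epithelial scaling (adjusted p = 0.197) and 0.69 with the mesenchyme covariate (adjusted p = 0.711), and that of Sox9 was 1.25 under that scaling. Foxa2 (-1.52, adjusted p = 0.254) and Esr1 (0.30, adjusted p = 0.594) did not pass. The interaction of Igf2 did not pass without bladder E18.5 replicate 1 (adjusted p 0.0516). The interaction of Lin28b did not pass without bladder E18.5 replicate 2 (adjusted p 0.0546). The interaction of Shh did not pass without urethra E18.5 replicate 1 (adjusted p 0.0526).

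Among genes whose urethral stages did not overlap, the largest negative interactions were those of Lhx1 (-8.59), Mc5r, a melanocortin receptor (-7.62), Hdc (-7.08), Hsd11b1, which activates glucocorticoids (-6.63), Pax2 (-6.27), Cd163, a macrophage receptor (-5.95), and Emx2 (-5.92). Mc5r, Hsd11b1 and Cd163 rose in urethra, by log2 2.96, 2.52 and 3.34, and had log2 fold changes of 10.57, 9.19 and 9.31 in bladder. The duct genes Lhx1, Pax2 and Emx2 did not pass when bladder E18.5 replicate 2 was left out. Without bladder E14.5 replicate 1 the interaction was -6.92 for Cd163. With bladder E14.5 replicate 3 left out, the interaction stood at -8.65 for Hdc and -8.36 for Hsd11b1. Leaving out bladder E14.5 replicate 4 gave an interaction of -9.62 for Lhx1 and -7.86 for Pax2. Without bladder E18.5 replicate 2 the interaction was -4.63 for Emx2, -2.03 for Lhx1 and -3.74 for Pax2. With urethra E14.5 replicate 3 left out, the interaction stood at -4.77 for Emx2, -5.83 for Hdc, -7.82 for Lhx1 and -5.27 for Pax2. Leaving out urethra E18.5 replicate 3 gave an interaction of -6.63 for Emx2, -9.37 for Lhx1 and -9.49 for Pax2. The interaction of Emx2 did not pass without bladder E18.5 replicate 2 or urethra E18.5 replicates 1 or 2 (adjusted p 0.0571 to 0.0734). The interaction of Lhx1 did not pass without bladder E18.5 replicate 2 (adjusted p 0.923). The interaction of Pax2 did not pass without bladder E14.5 replicates 1, 2 or 3 or bladder E18.5 replicates 1 or 2 or urethra E14.5 replicates 2, 3 or 4 or urethra E18.5 replicates 1 or 2 (adjusted p 0.0605 to 0.377). With E14.5 replicate 1 left out, the log2 fold change stood at 4.20 for S100g and 3.37 for Neb. The call of Hsd11b1 was lost without E14.5 replicate 4 or E18.5 replicates 1, 2 or 3 (adjusted p 0.0648 to 0.0948). S100g and Neb lost their calls without any library other than E14.5 replicate 1 (adjusted p 0.0597 to 0.149).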

How the data were processed

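Poly(A) RNA was sequenced from pooled female CD-1 epithelium, per the labels' protocols. The authors deposited raw counts of reads per gene, 1 table for each stage. Per the submitters' processing notes, HISAT2 2.2.1 and SAMtools 1.9 were used with GRCm38. Which tool counted the reads, with which annotation and whether by strand, is not given in the sources used here, so reads of overlapping or near-identical genes may be shared. The labels number 4 E14.5 litters but only 3 of E18.5, whereas the extract protocol gives 3 litters a stage.

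Groups were taken from the labels. The 7 urethral libraries were fitted with edgeR 4.0.16 (R 4.3.3): TMM scaling, the default filter on low counts, the quasi-likelihood test and Benjamini-Hochberg adjustment at 0.05 over all tested genes. The interaction with bladder used all 14 libraries. CPM divide each count by its library's TMM-scaled total. Counting intervals (95%) and the 3 counts that a count of 0 allows cover counting error only. The analysis was also run on simulated counts in which few genes changed and no library stood apart. That run does not cover the dependence of the calls on single libraries. No 2 libraries agreed within sampling noise.

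Members and lists were chosen with earlier results of these data known, and the lists say nothing independent of them. Named genes were the 15 largest changes in each direction past the threshold, where groups did not overlap and the higher one averaged 5 CPM or more, in each list up to 6 members ranked by adjusted p plus the strongest one that went against most of it, 16 genes given whatever their result, and the 8 largest interactions in each direction. Interaction values are printed for 47 genes, not for every named gene, and those outside the 16 given genes and the largest interactions were picked after their values were seen. Outside that rule, Cldn9, Foxq1, Eya2, Isl1, Eya1, Gli1, Synpo2 and Cdc20 were chosen after their values were seen, as were the printed promoters. A few members of the lists are counted but not reported by name here. Alternatives were DESeq2 1.42.0, limma 3.58.1 (voom), other filters and scalings, a mesenchyme score as a covariate, a replicate block, scaling on 7 pan-epithelial genes and leaving out each library. Leaving out E14.5 replicates 1 and 3 together was added after seeing the data.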

Additional observations from a re-analysis of the deposited data

Results flagged for a closer look

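Among the 4 urethral libraries of E14.5, 1 library lay far from the other 3, relative to the range of the group, for 50 of the 242 named genes and for the summed level of 9 gene lists. The cutoff would set apart a library in about 1 in 20 groups by chance if values were normally distributed. CPM are skewed, and the genes were named from these same libraries, which all genes and lists share. The counts are therefore not compared with chance, and no rate over all tested genes was computed. The library was E14.5 replicate 1 in 47 of these, replicate 3 in 9, replicate 2 in 2 and replicate 4 in 1.

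E14.5 replicate 1 was the highest of its group, value first and then the range of the other 3 libraries, for Krt13 (5.76 CPM against 0.169 to 0.498), Krt78 (18.2 CPM against 3.20 to 5.64), Krt4 (1740.0 CPM against 115 to 372), Krt20 (5.85 CPM against 2.89 to 3.07), Sbsn (7.93 CPM against 2.95 to 3.16) and Tmprss11b (2.17 CPM against 0.259 to 0.421). It stood above the others as well for Dsg3 (10.2 CPM against 0.674 to 1.66), Gja1 (186 CPM against 168 to 171), Hopx (42.5 CPM against 8.09 to 12.9), Psca (167 CPM against 2.41 to 19.7), Upk1b (740.0 CPM against 121 to 217) and Upk3a (243 CPM against 13.2 to 35.9). The same library was also highest for Foxq1 (88.1 CPM against 19.3 to 27.4), Areg (2.90 CPM against 0.332 to 0.590), Hbegf (15.3 CPM against 7.60 to 8.18), Ereg (2.31 CPM against 0 to 0.249), Crabp2 (85.1 CPM against 38.0 to 45.4) and Tlr4 (7.14 CPM against 1.39 to 2.2). Further genes at which it was highest were Clca1 (446 CPM against 49.1 to 113), Psmb9 (1.34 CPM against 0.498 to 0.590), H2-D1 (69.2 CPM against 22.1 to 26.8), Scnn1a (16.0 CPM against 5.07 to 6.03), Cdkn1a (99.1 CPM against 31.9 to 36.5) and Cdkn2b (9.68 CPM against 2.37 to 2.82). It also led its group for Gadd45b (15.3 CPM against 5.56 to 6.48), Ier3 (9.08 CPM against 2.53 to 3.62), Hspa1a (11.5 CPM against 4.74 to 5.11), Pfkp (42.9 CPM against 16.1 to 16.7), Aldoa (1139 CPM against 514 to 555) and Plin3 (111 CPM against 86.0 to 86.7). High values were also those of Fabp4 (9.13 CPM against 0.259 to 0.674), Gsto1 (75.5 CPM against 40.2 to 43.6), Adh7 (5.44 CPM against 1.21 to 1.29), Ckm (0.277 CPM against 0 to 0), Mroh4 (0.692 CPM against 0 to 0.0831) and S100g (6.04 CPM against 0.665 to 0.948). E14.5 replicate 1 was the lowest for Hoxd12 (33.3 CPM against 61.1 to 65.2), Hoxd13 (123 CPM against 191 to 198) and Oas2 (0.0922 CPM against 0.166 to 0.172). For E14.5 replicate 2 the values were those of Cxcl17 (0.0862 CPM against 0 to 0) and Cd163 (0 CPM against 0.166 to 0.184). For E14.5 replicate 3 the values were those of Klk8 (24.6 CPM against 19.2 to 20.1), Sox2 (65.7 CPM against 124 to 136), Wnt9b (44.1 CPM against 0.645 to 7.19), Wnt2b (10.2 CPM against 4.09 to 4.74), Rnf43 (90.2 CPM against 126 to 132), Cdh17 (0.801 CPM against 0.172 to 0.249), Slc38a4 (150.0 CPM against 82.7 to 92.6) and Kcnj16 (19.4 CPM against 0.876 to 2.83). For E14.5 replicate 4 the values were those of Cdkn1b (65.6 CPM against 52.2 to 53.5).

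Of the summed lists, E14.5 replicate 1 was highest for suprabasal and mucosal keratins (1982 CPM against 157 to 449), connexins (330.0 CPM against 273 to 279), uroplakins and superficial urothelium (2764 CPM against 426 to 738), water, ion and solute transport (2396 CPM against 1150.0 to 1339), glycolysis (9413 CPM against 5245 to 5490.0), oxidative phosphorylation (5271 CPM against 4522 to 4624), detoxification (1875 CPM against 766 to 885) and hindgut (17.8 CPM against 10.1 to 10.9), and replicate 3 for neuroendocrine genes (218 CPM against 137 to 147).

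In edgeR's interaction test with Benjamini-Hochberg adjusted p under 0.05, 4183 of all 18286 tested genes passed (22.9%). Many named genes were picked for large stage changes or interactions in these data, so their share is not set against that of all genes. Of the 242 named genes, 125 had a stage change that differed between urethra and bladder, 69 more positive and 56 more negative in urethra. Values are given for the 34 of these among the 47 genes whose interaction is printed. The urethral minus the bladder log2 fold change was 5.38 for Krt13, 2.72 for Krt79, 5.42 for Krt23, 2.72 for Krt78, 1.34 for Krt19, 6.94 for Tmprss11g, 1.51 for Foxa1, 2.44 for Sox9 and 0.99 for Shh. Positive values were also 3.32 for Muc1, 6.08 for Reg3g, 6.24 for Clca1, 8.56 for Slc26a9, 6.69 for Vil1, 5.31 for Nccrp1, 5.70 for Tspan1, 6.30 for S100g and 6.10 for Neb. It was negative at -1.14 for Cdh3, -5.63 for Krt14, -3.14 for Ptch1, -3.75 for Gli1, -1.20 for Kif11, -0.98 for Ccna2, -1.11 for Mki67 and -2.41 for Lin28b. Further negative values were -1.35 for Igf2, -8.59 for Lhx1, -6.27 for Pax2, -5.92 for Emx2, -7.08 for Hdc, -7.62 for Mc5r, -6.63 for Hsd11b1 and -5.95 for Cd163. The interaction of Krt19 did not pass without bladder E14.5 replicate 4, bladder E18.5 replicates 1 or 2, urethra E14.5 replicates 2, 3 or 4 or urethra E18.5 replicates 1 or 2 (adjusted p 0.0526 to 0.0723), and it was 0.20 under pan-epithelial scaling (adjusted p = 0.442).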

How the results depend on the processing

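With all 7 libraries 5039 genes passed, 2618 higher and 2421 lower at E18.5. DESeq2 size factors, both other filters, DESeq2, limma voom, a fit of all 14 libraries and the mesenchyme covariate gave counts within 1.5 times these, and DESeq2 kept 5010 of the calls. A minimum of 2-fold left 2414 genes (1508 higher, 906 lower) by construction. Pan-epithelial scaling gave 7590 (885 higher, 6705 lower). Leaving out 1 library gave 2658 to 7272 genes, 1349 to 3903 higher and 1267 to 3369 lower. Leaving out E14.5 replicates 1 and 3 together, chosen after seeing the data, gave 3587 higher and 2766 lower and kept 4540 of the calls. The interaction passed for 4183 genes and, with a 2-fold minimum, for 2761, with the mesenchyme covariate for 52, under pan-epithelial scaling for 12787, and without 1 library for 2654 to 5697. The cause of these shifts was not tested.

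With the replicate number as a block 2532 genes passed, 1375 higher and 1157 lower, and 2458 of the calls were kept. Correlations of same-numbered libraries across stages were 0.195, -0.0721 and 0.213, and those of other-numbered libraries ran from -0.214 to 0.116. These values do not settle whether the numbers mark a shared batch. The libraries of the stages are different litters, and the numbers were not taken as pairs.

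Under pan-epithelial scaling the direction turned for Trp63 (-0.64), Epcam (-0.14), Foxa1 (-0.066), Foxc1 (-0.10), Hoxa11 (-0.079), Id1 (-0.024), Cdkn1b (-0.18), Sc5d (-0.17), Elovl5 (-0.0037), Plin3 (-0.087), Col6a2 (-0.024) and Col1a1 (-0.19). Trp63, which was at 0.02, was also negative with a filter of 1 CPM (-0.0024) and without E14.5 replicates 1 and 3 (-0.0096), and without 1 library it ranged from -0.19 to 0.23. Shh ranged from -0.19 to 0.10 without 1 library. The interaction turned with the mesenchyme covariate for Krt20 (-1.14), Upk1b (-0.63), Upk3a (-1.81), Esr1 (-0.089), Hmga2 (1.55) and Emx2 (1.73). It turned under pan-epithelial scaling for Krt20 (-0.13), Upk1b (-0.22), Upk3a (-0.58), Shh (-0.27), Esr1 (-0.98) and Igf2bp1 (-1.11). Without 1 library the interaction ranged from -0.12 to 1.83 for Upk3a and -0.24 to 0.054 for H19. The counts per library (22.4 to 35.1 M) limit genes under about 1 CPM, where a library holds few reads.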
